A study of Mus musculus with 3 samples.

Results

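Genes of cholesterol and fatty acid synthesis were followed on 3 single-colour Affymetrix arrays of mesenchymal progenitors from mouse bone marrow. The set was a fixed list of 34 genes, out of 17097 genes that had a probe set annotated to 1 gene. Its genes were chosen for their roles, with earlier results of these data known. A probe set annotated to that gene alone was found for 30 of the 34, and each gene stood as the one of its probe sets that was brightest on average. The values are RMA intensities on a linear scale, and the highest nonspecific control probe set on any array, 3.47, was taken as the level under which a signal could not be told from background. Of the 30 genes 26 were above that level on all 3 arrays, 1 (Lss) on 1 array and 3 (Hmgcs1, Mvd and Dhcr7) on none. Srebf1, Acat2, Pmvk and Scd2 were not analysed here.

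The cells are called PaS+ in the labels, came from 8-week-old C56Bl/6 mice and were sorted by FACS. All 3 groups were grown in MesenCult medium at 1% oxygen for 7 days, were transduced overnight with a lentiviral short hairpin RNA (shRNA) and were collected 4 days after transduction. The groups differed in the hairpin: a control shRNA, or one against HIF-1α or HIF-2α, which are the subunits through which hypoxia-inducible factors respond to oxygen. Transduction was done when colonies had begun to form. Every group was 1 array, and no second culture or animal is named, so array and hairpin cannot be told apart, the spread between cultures is unknown, no test was run and every value below describes these arrays.

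The targeted genes did not bear out both labels. Hif1a read 352.1 for control and 332.4 for both other hairpins. Epas1, which encodes HIF-2α, read 5.09 for control, 9.44 for the hairpin against HIF-1α and 3.21, under the nonspecific level, for that against HIF-2α. The arrays are therefore called shHIF-1a-labelled and shHIF-2a-labelled after their titles, and each direction below rests on those titles. Of 11 mesenchymal progenitor markers on the arrays 10 were above the nonspecific level on each array, with Pdgfra, which defines these cells, at 38.2, 51.6 and 47.9, whereas Col1a2 was under it on all 3. Of those 10, 4 were higher than control on the shHIF-2a-labelled array, 2 equal and 4 lower, against 66.6% of all genes higher and 18.4% lower. At least 2-fold lower there were 2 of the 10, against 0.518% of all genes. These were the stromal chemokine gene Cxcl12, at 249.96, 177.9 and 72.3, and the collagen gene Col1a1, at 130.4, 126.9 and 48.1. Their part in the results below was not tested. Ly6a, the other defining marker, was not analysed here. Of 9 blood cell markers none passed it on the control or shHIF-1a-labelled array and 1, the macrophage gene Cd68, did on the shHIF-2a-labelled array, and the pan-leukocyte gene Ptprc read 1.05 on all 3.

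Cholesterol is built from acetyl-CoA through mevalonate, isoprenoid diphosphates, squalene and lanosterol, and fatty acids are built from the same precursor by carboxylation, chain synthesis, elongation and desaturation. SREBP transcription factors drive both arms: SCAP escorts them out of the endoplasmic reticulum when sterols are scarce, and INSIG proteins hold SCAP back when sterols are plentiful. Several steps consume molecular oxygen, among them those of squalene epoxidase, lanosterol demethylase, the methyl sterol oxidase and the fatty acid desaturases.

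Sterol genes were slightly brighter on the shHIF-1a-labelled array than on the control array, and most of them were lower again on the shHIF-2a-labelled array. Against control, 16 of the 17 sterol genes that could be compared were higher on the shHIF-1a-labelled array and 1, Scap, was equal, with a median log2 difference of 0.33. Over all 8796 genes compared, 65.2% were higher and the median was 0.10. In the direct comparison of the shRNA arrays, 13 of 17 sterol genes were lower on the shHIF-2a-labelled array, 3 were higher and 1 was equal. Their median was −0.18. Of 8878 genes 24.6% were lower, 44.9% higher and 30.5% exactly equal, with a median of 0.00. The ties hold the share of lower genes down: under 3 other scalings of the arrays 56.6% to 59.6% of all genes were lower. Fatty acid genes were closer to the rest in their medians, 0.09 and −0.08 over 10 genes in the same order. By count, 7 of the 10 were higher than control on the shHIF-1a-labelled array. Between the shRNA arrays 6 of the 10 were lower on the shHIF-2a-labelled array, 2 higher and 2 equal, so lower values there were not confined to sterol genes. The differences were small: no gene of the list was 2-fold apart on any pair of arrays where both values were above the nonspecific level.

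**Figure D1:**
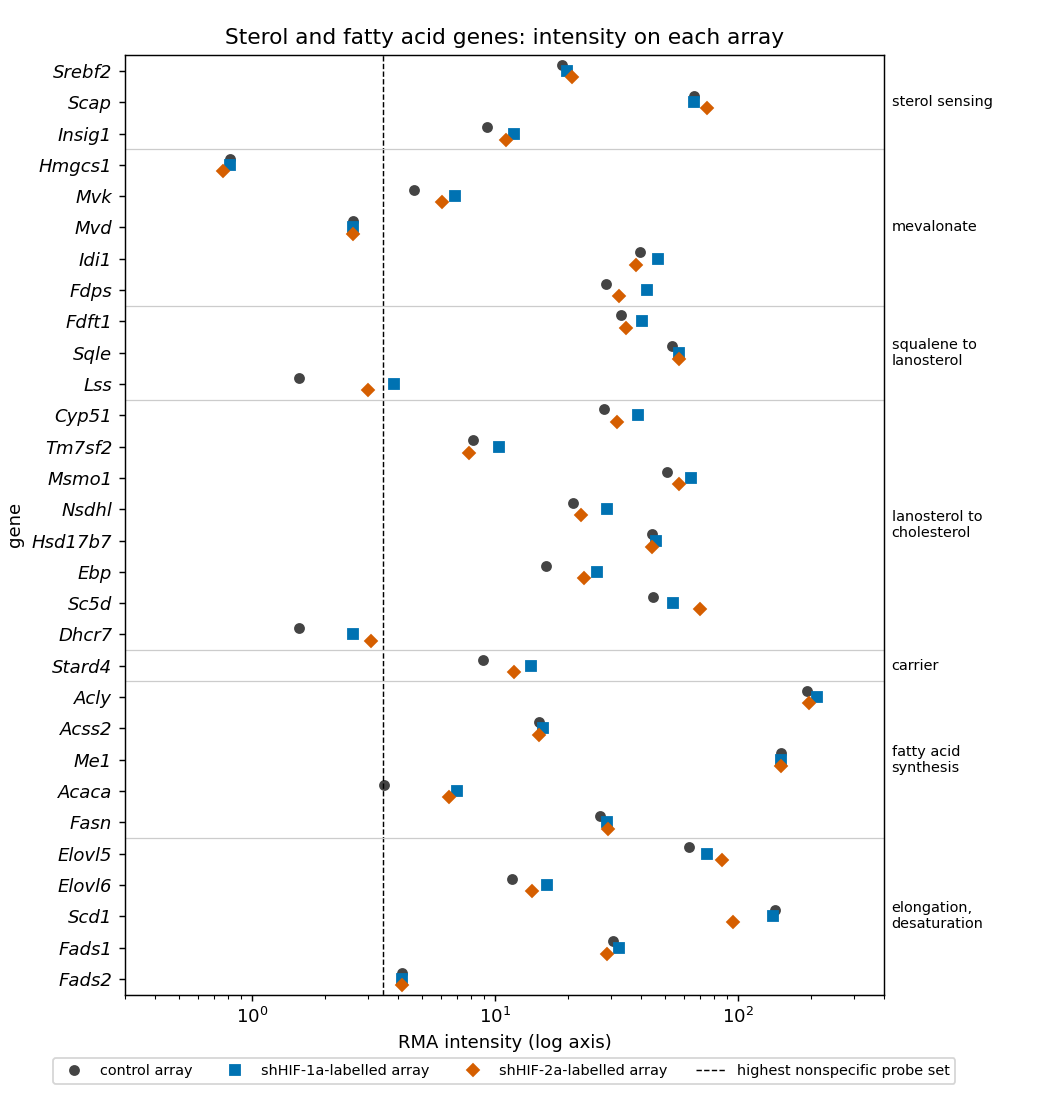
RMA intensity (log axis) of the 30 genes on the control, shHIF-1a-labelled and shHIF-2a-labelled arrays, 1 point per array, ordered by role. The dashed line is the highest nonspecific probe set, 3.47, and Hmgcs1, Mvd and Dhcr7 lie left of it on all 3 arrays.

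Differences in the sensing machinery were small. Srebf2, the SREBP gene most devoted to cholesterol synthesis, read 19.0 on the control, 19.8 on the shHIF-1a-labelled and 20.7 on the shHIF-2a-labelled array. Scap read 66.3 on both the control and shHIF-1a-labelled arrays and 74.7 on the shHIF-2a-labelled array. Insig1, itself a target of SREBP, read 9.27, 11.9 and 11.2 in the same order. Its log2 differences from control were 0.37 and 0.27, and after quantile normalization it was not above control on either shRNA array, with log2 differences of −0.01 and −0.22.

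In the mevalonate part, 3 genes were measured and all 3 were highest on the shHIF-1a-labelled array. Over all genes 65.2% were higher there than on control. On the shHIF-2a-labelled array 24.6% were lower than there and 30.5% were equal. Fdps, which makes farnesyl diphosphate, read 28.8 on the control, 42.3 on the shHIF-1a-labelled and 32.4 on the shHIF-2a-labelled array, so the first shRNA array was the high one. It was 1.47-fold above control there and 1.31-fold lower on the shHIF-2a-labelled than on the shHIF-1a-labelled array. Mvk (mevalonate kinase) read 4.64, 6.86 and 6.05, close to the nonspecific level. Idi1, which interconverts the isoprenoid building blocks, read 39.7, 46.8 and 38.1. Its other measured probe set read 14.2, 21.0 and 18.9, so the Idi1 probe sets differed in direction between the shHIF-2a-labelled and control arrays but both were lower on the shHIF-2a-labelled than on the shHIF-1a-labelled array. Hmgcs1, the enzyme that makes HMG-CoA, was represented by a single probe set that read 0.815, 0.815 and 0.763, and Mvd by one that read 2.61 on all 3 arrays, so neither has a fold.

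From squalene to lanosterol the values were close together. Fdft1 (squalene synthase) read 32.9 on the control, 40.3 on the shHIF-1a-labelled and 34.7 on the shHIF-2a-labelled array. Sqle, the squalene epoxidase that uses oxygen, read 53.8 on the control array and 57.5 on both shRNA arrays, a difference of 0.10 on the log2 scale. Lss, which closes the sterol rings, passed the nonspecific level only on the shHIF-1a-labelled array, at 3.86 against 1.57 on the control and 3.02 on the shHIF-2a-labelled array, and was at least 1.11-fold higher there than on either.

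The steps from lanosterol to cholesterol held 7 measured genes, and all 7 were higher on the shHIF-1a-labelled array than on control, against 65.2% of all genes. Ebp, the sterol isomerase, read 16.2 on the control, 26.4 on the shHIF-1a-labelled and 23.3 on the shHIF-2a-labelled array, with both shRNA arrays above control. It was 1.63-fold and 1.44-fold above control. Nsdhl, a dehydrogenase that removes a methyl carbon from the ring, read 20.9, 29.0 and 22.7, and Cyp51, the lanosterol demethylase, 28.1, 38.8 and 31.8. For both genes the shHIF-1a-labelled value was the high one of the 3. Msmo1, the methyl sterol oxidase, read 51.1, 64.1 and 57.2, and the sterol reductase gene Tm7sf2 read 8.17, 10.4 and 7.83. Hsd17b7, a keto-sterol reductase, read 44.5, 46.1 and 44.5, although its second probe set read 20.8, 31.0 and 28.1. Dhcr7, the last reductase of the pathway, stayed under the nonspecific level, at 1.56, 2.61 and 3.09.

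Sc5d, a sterol desaturase that uses oxygen, differed from its neighbours in order. It read 44.8 on the control, 54.3 on the shHIF-1a-labelled and 69.9 on the shHIF-2a-labelled array, and so was highest where most sterol genes were lower. It was 1.56-fold above control and 1.29-fold above the shHIF-1a-labelled array on the shHIF-2a-labelled array, and the direct log2 difference lay between 0.33 and 0.37 under all 4 scalings of the arrays. Stard4, a carrier of cholesterol between membranes, read 8.97, 14.2 and 12, with the control array the low one.

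The upstream sequence of 6 sterol genes is given because most of these genes shared an order over the arrays: Ebp, Nsdhl, Cyp51 and Tm7sf2 were lower on the shHIF-2a-labelled than on the shHIF-1a-labelled array, Sc5d went the other way, and Hmgcs1 was the gene with a match to the sterol regulatory element, the site that SREBP binds. The sequences are from RefSeq (GRCm38.p6), cover the 250 bases before the annotated start of transcription and run 5′ to 3′ on the gene's strand. Capitals mark CCAAT, the box bound by NF-Y, a partner of SREBP, or its complement ATTGG, and in Hmgcs1 also the sterol element.
Hmgcs1, chr13:119690101-119690350, plus strand: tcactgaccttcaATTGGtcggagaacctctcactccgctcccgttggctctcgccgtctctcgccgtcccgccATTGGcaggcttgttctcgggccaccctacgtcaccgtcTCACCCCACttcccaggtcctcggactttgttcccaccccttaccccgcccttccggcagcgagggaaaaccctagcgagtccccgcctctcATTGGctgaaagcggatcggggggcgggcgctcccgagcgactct
Ebp, chrX:8193513-8193762, minus strand: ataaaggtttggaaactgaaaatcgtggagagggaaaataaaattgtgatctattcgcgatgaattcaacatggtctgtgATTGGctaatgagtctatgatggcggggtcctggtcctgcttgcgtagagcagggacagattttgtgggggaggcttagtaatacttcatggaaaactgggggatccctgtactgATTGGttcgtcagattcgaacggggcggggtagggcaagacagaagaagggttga
Nsdhl, chrX:72918271-72918520, plus strand: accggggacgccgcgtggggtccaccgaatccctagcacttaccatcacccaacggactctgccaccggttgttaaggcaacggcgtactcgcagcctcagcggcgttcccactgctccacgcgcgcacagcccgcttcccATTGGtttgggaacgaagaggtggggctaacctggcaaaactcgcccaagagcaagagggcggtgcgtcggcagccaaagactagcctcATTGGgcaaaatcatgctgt
Cyp51, chr5:4104698-4104947, minus strand: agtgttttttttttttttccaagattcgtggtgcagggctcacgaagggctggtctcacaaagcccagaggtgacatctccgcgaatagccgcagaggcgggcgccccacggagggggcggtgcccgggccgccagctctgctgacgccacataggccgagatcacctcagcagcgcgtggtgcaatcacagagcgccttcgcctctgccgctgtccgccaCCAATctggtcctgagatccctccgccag
Tm7sf2, chr19:6067851-6068100, minus strand: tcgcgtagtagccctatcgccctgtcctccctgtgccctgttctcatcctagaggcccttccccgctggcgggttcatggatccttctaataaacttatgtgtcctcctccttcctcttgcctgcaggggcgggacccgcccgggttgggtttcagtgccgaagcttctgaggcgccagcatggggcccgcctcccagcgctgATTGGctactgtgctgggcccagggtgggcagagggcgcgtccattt
Sc5d, chr9:42264301-42264550, minus strand: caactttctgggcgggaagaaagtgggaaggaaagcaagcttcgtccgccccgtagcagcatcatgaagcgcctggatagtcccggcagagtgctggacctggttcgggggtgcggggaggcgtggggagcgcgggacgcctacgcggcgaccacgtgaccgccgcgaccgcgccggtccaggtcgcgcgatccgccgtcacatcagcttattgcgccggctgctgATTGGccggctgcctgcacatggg

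A promoter was listed for 27 of the 34 genes. The box CCAAT, on either strand, was in the 250 bases of 21 of them (77.8%), against 37.5% of 27025 genes in the table, and it was in 17 of 19 sterol and 4 of 8 fatty acid genes. GGGCGG, the core of the site bound by Sp1, another partner of SREBP, was in 22 of 27 (81.5%), against 35.4%. The sterol element was searched as TCACNCCAC on both strands and matched Hmgcs1 alone, or 3.7% of the 27 against 1.22% of all genes. The core letters to which HIF binds were searched as ACGTG, found in 8 of 27 (29.6% against 18.5%), and as GCGTG, found in 15 of 27 (55.6% against 30.9%). ACGTG overlaps the E-box CACGTG, which was in 6 of 27 (22.2% against 6.86%). Each match describes letters in this window and not a bound site.

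Of the fatty acid genes 10 could be compared. Acly, which frees acetyl-CoA from citrate, read 192 on the control, 212 on the shHIF-1a-labelled and 196 on the shHIF-2a-labelled array. Acss2, which makes acetyl-CoA from acetate, read 15.2, 15.7 and 15.2, and Fasn, the fatty acid synthase, 27.1, 29.0 and 29.2. These 3 genes differed from control by at most 0.14 on the log2 scale. Me1, the malic enzyme that supplies NADPH, read 151.0 on all 3 arrays, while its other probe set read 157.7, 141.0 and 127.6.

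Acaca, the carboxylase that commits acetyl-CoA to fatty acids, had the highest ratio to control of the list. It read 3.50 on the control array, just above the nonspecific level, 6.96 on the shHIF-1a-labelled and 6.47 on the shHIF-2a-labelled array. The folds of 1.99 and 1.84 thus rest on a control value next to background, and with 16 added to each intensity the log2 differences were 0.24 and 0.20. Elovl5, an elongase of polyunsaturated chains, read 62.7, 74.5 and 86.6, the same order as Sc5d. Its second probe set read 63.4 on the control array and 72 on both shRNA arrays. Elovl6, an elongase of saturated chains, read 11.8, 16.4 and 14.2, but its second probe set read 7.99 on the control array and 7.78 on both others.

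Of the measured fatty acid desaturases, Scd1 differed most between arrays. Scd1, which puts the first double bond into saturated chains, read 143.0 on the control, 139.2 on the shHIF-1a-labelled and 95.3 on the shHIF-2a-labelled array, so the shHIF-2a-labelled value was the low one. Its log2 difference from control there was −0.58, between −0.82 and −0.58 under the 4 scalings, and from the shHIF-1a-labelled array it was −0.55. A dimmer Scd1 probe set read 2.07 on the control array and 5.34 on both others and did not follow it. Of the desaturases of polyunsaturated chains, Fads1 read 30.6, 32.3 and 29.0, and Fads2 4.14 on all 3 arrays.

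Adipocyte genes were also lowest in sum on the shHIF-2a-labelled array. Of 8 adipocyte markers with a probe set, 5 passed the nonspecific level for control and 6 for either shRNA, and their summed intensity was 498.9, 684.3 and 262.5 on the control, shHIF-1a-labelled and shHIF-2a-labelled arrays. Lpl, the lipoprotein lipase, read 148.7, 223.9 and 53.2, and Fabp4, a fatty acid carrier, 298.1, 394.0 and 163.9. Adipoq (adiponectin) was under the nonspecific level for control and at least 2.88-fold higher on the shHIF-1a-labelled array. On the shHIF-2a-labelled array Adipoq read 3.50, barely above the nonspecific level of 3.47. All 6 adipocyte genes compared were higher than control on the shHIF-1a-labelled array, against 65.2% of all genes. Pparg and Cebpa were so by only 0.01 and 0.06 on the log2 scale. Under other scalings they went down to −0.19 and −0.28. On the shHIF-2a-labelled array 4 of the 6 were lower than control, 1 (Cebpa) was equal and 1 (Adipoq) higher. Over all genes 18.4% were lower there and 66.6% higher. Lep and Retn were under the nonspecific level throughout. Over the 6 interferon-response genes with a probe set the summed intensity was 11, 274.5 and 619.6, with Ifit1 at 1.04, 93.8 and 186.3. The part of either list in the sterol and Scd1 values was not tested. In such bulk samples, fewer cells of a type and less RNA per cell cannot be told apart.

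**Figure D2:**
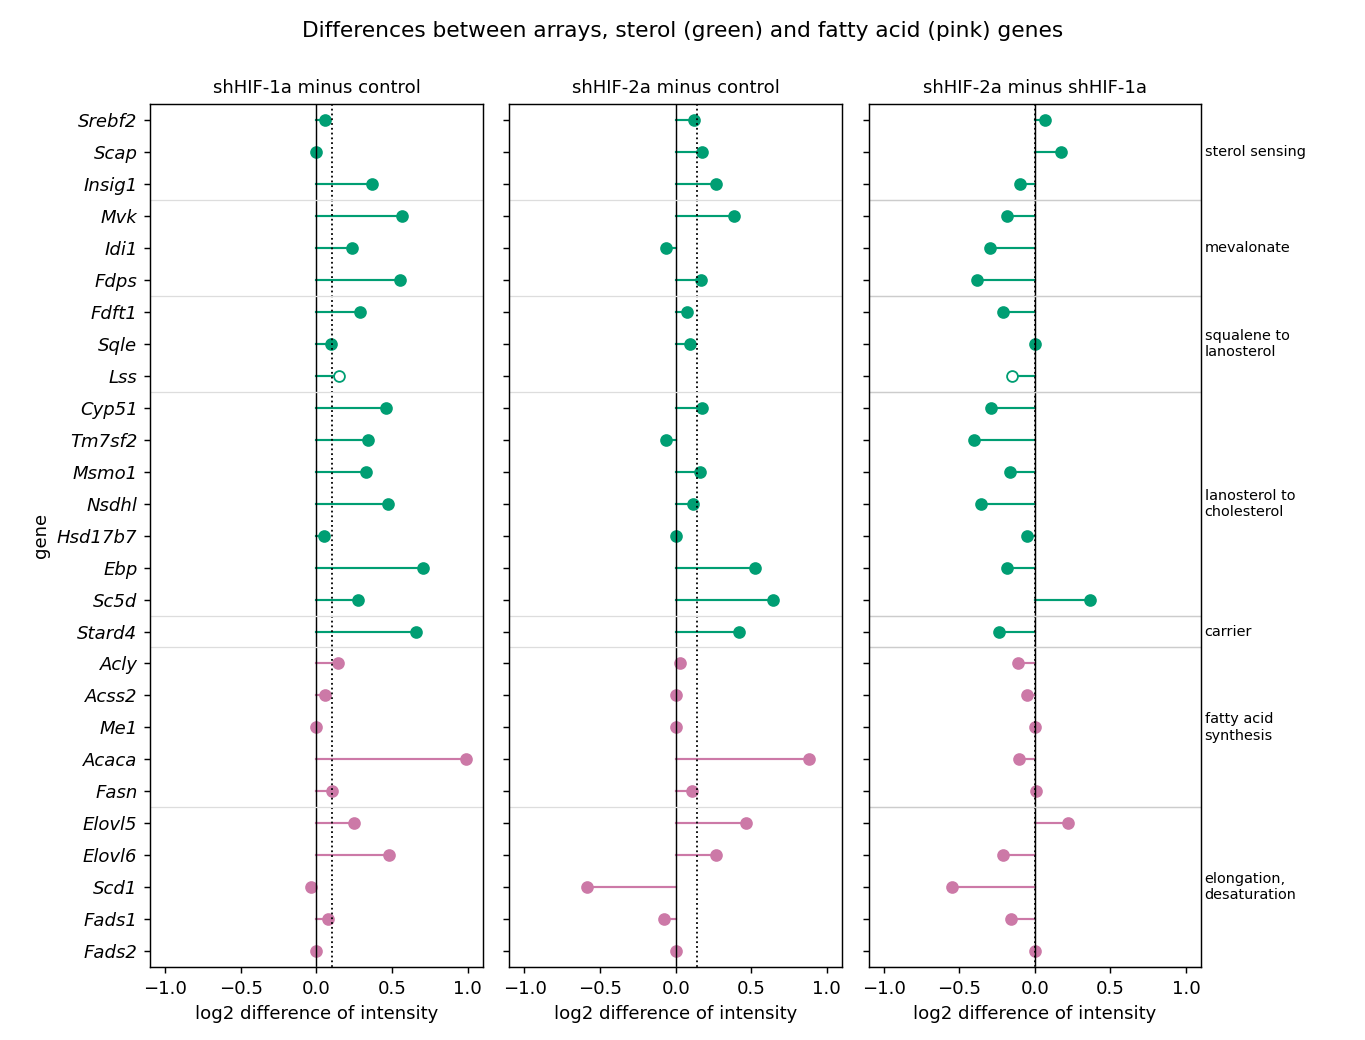
Log2 difference of intensity for the 27 genes that could be compared, in 3 panels: shHIF-1a-labelled minus control, shHIF-2a-labelled minus control and shHIF-2a-labelled minus shHIF-1a-labelled. Open circles have 1 value raised to the nonspecific level and dotted lines are the medians of all genes compared, 0.10, 0.14 and 0.00; in the right panel 13 of 17 sterol genes lie left of 0, with Sc5d, Scap and Srebf2 to the right.

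Counts were read against all genes because the shRNA arrays were brighter than control over much of the range. On the shHIF-1a-labelled array 0 of 27 list genes were at least 2-fold above control, against 4.08% of all genes compared, and 3 of 27 (Acaca, Ebp and Stard4) were at least 1.5-fold above, against 12.2%. None was 1.5-fold below, against 0.239%. None was 2-fold below, against 0.0568%. By any amount 23 of 27 were higher, against 65.2% of all genes, and 1, Scd1, lower, against 15.5%. On the shHIF-2a-labelled array 0 of 26 were at least 2-fold above control, against 7.62%, and 0 were 2-fold below, against 0.518%. At 1.5-fold 2 of 26 (Acaca and Sc5d) were above, against 18.4%, and 0 below, against 1.71%, Scd1 being just short of that size. There 18 of 26 were higher by any amount, against 66.6%, and 4 lower, against 18.4%, so the share of higher genes was near that of all genes. Between the shRNA arrays 5 of 27 list genes were higher on the shHIF-2a-labelled array, against 44.9%. None was 1.5-fold apart, against 4.4% of genes higher and 2.61% lower there, or 2-fold apart, against 1.18% and 0.834%.

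Genes measured by several probe sets gave one measure of technical spread. Within a gene, the pooled SD of the log2 difference over its probe sets was 0.40 for shHIF-1a-labelled against control, 0.45 for shHIF-2a-labelled against control and 0.21 for the direct comparison at mean intensities under 16. It was 0.24, 0.32 and 0.18 between 16 and 64, and 0.12, 0.19 and 0.14 above that. It says nothing of the spread between cultures. By more than this SD, 13 of 27 list genes were above control on the shHIF-1a-labelled array (9 sterol genes), against 33.4% of all genes. None was below, against 3.34%. On the shHIF-2a-labelled array 4 of 26 were above, a smaller share than the 33.2% of all genes, and 1, Scd1, below, against 5.93%. In the direct comparison 9 of 27 were lower on the shHIF-2a-labelled array, against 11.7%: Fdps, Tm7sf2, Nsdhl, Idi1, Cyp51, Stard4, Fdft1, Ebp and Scd1. Sc5d, Elovl5 and Scap were higher, against 23.2%.

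The shift of the list against control differed with brightness, as did that of all genes. Among the 3348 genes with a mean intensity of 16 to 64, the median difference of the shHIF-1a-labelled array from control was 0.12 and 68.4% were higher, while the 11 sterol genes in that range had a median of 0.29 and all 11 were higher. Under 16 the median was 0.27 for all genes and 0.37 for 5 sterol genes, all 5 of them higher against 75.2% of all genes. For the shHIF-2a-labelled array against control the medians at 16 to 64 were 0.16 for all genes and 0.12 for the 11 sterol genes, of which 9 were higher, against 68% of all genes. In the direct comparison at 16 to 64, 25.1% of all genes were lower on the shHIF-2a-labelled array and 28.7% were equal, with a median of 0.00. Of the 11 sterol genes 8 were lower, with a median of −0.18.

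**Figure D3:**
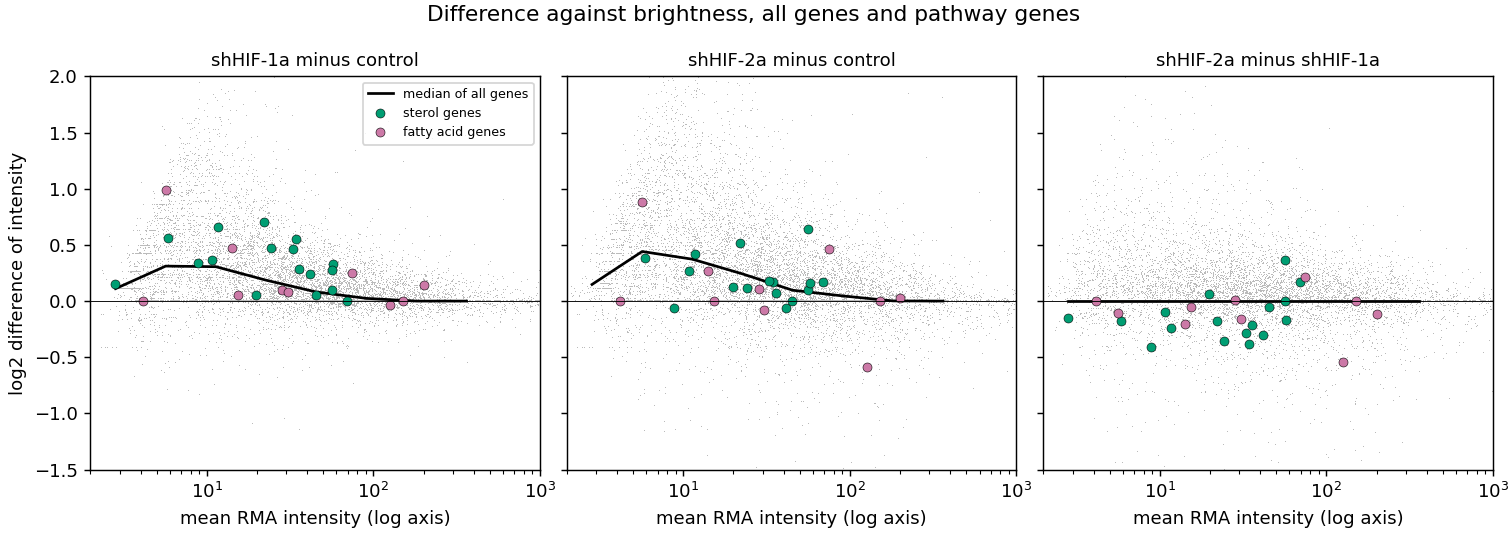
Log2 difference of intensity against mean RMA intensity (log axis) for all genes compared (grey), the median of all genes in bins of brightness (black line), sterol genes (green) and fatty acid genes (pink); points beyond the axis are not drawn. The black line lies above 0 for dim genes against control but along 0 between the shRNA arrays, where most sterol genes lie under it.

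Other scalings of the arrays lowered the medians against control, of all genes and of the list, and changed the direct comparison less. The all-gene median for shHIF-1a-labelled against control was 0.10 as deposited, −0.03 after quantile normalization, 0.02 after cyclic loess and −0.10 with arrays centred on genes above background. The sterol median was 0.33, 0.13, 0.18 and 0.14 in that order and so lay above the all-gene median each time. For shHIF-2a-labelled against control the all-gene medians were 0.14, −0.03, 0.03 and −0.09 and the sterol medians 0.17, −0.08, 0.02 and −0.07, with no direction that held. In the direct comparison the sterol medians were −0.18, −0.23, −0.22 and −0.22, against 0.00, −0.02, −0.02 and −0.04 for all genes. That difference was smaller under other choices, with a sterol median of −0.10 when all probe sets of a gene were averaged and −0.11 with 16 added before log2.

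Against control 10 sterol genes were higher on the shHIF-1a-labelled array under all 4 scalings, out of 17, against 30.9% of all genes: Mvk, Idi1, Fdps, Fdft1, Cyp51, Msmo1, Nsdhl, Ebp, Sc5d and Stard4. In the direct comparison 12 of 17 sterol genes were lower on the shHIF-2a-labelled array under all 4, against 23.5%, and Sc5d, Scap and Srebf2 were higher, against 36.6%. The 30.5% of all genes tied in the deposited values could not count in either share. Of all genes 56.6% were lower after quantile normalization, 56.8% after cyclic loess and 59.6% with centred arrays. In that order 13 of 16, 14 of 17 and 13 of 16 sterol genes were lower. Among the 10 fatty acid genes 6 were lower under all 4 as well, and 1, Elovl5, was higher. On the shHIF-2a-labelled array against control only Ebp and Sc5d among the sterol genes were higher under all 4 scalings, against 33.1% of all genes, and Idi1 and Tm7sf2 were lower, against 17.7%. Second probe sets above the nonspecific level on all arrays existed for 5 sterol genes, Srebf2, Idi1, Cyp51, Hsd17b7 and Stard4. All 5 were higher on both shRNA arrays than on control, where 65.2% and 66.6% of all genes, by their brightest probe sets, were higher. Those of Srebf2, Cyp51 and Stard4 read under 16 on every array. Among genes with a mean intensity under 16, the shares higher than control were 75.2% and 77.9%. All 5 were lower on the shHIF-2a-labelled than on the shHIF-1a-labelled array, by 0.02 to 0.15 on the log2 scale, against 24.6% of all genes lower.

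**Figure D4:**
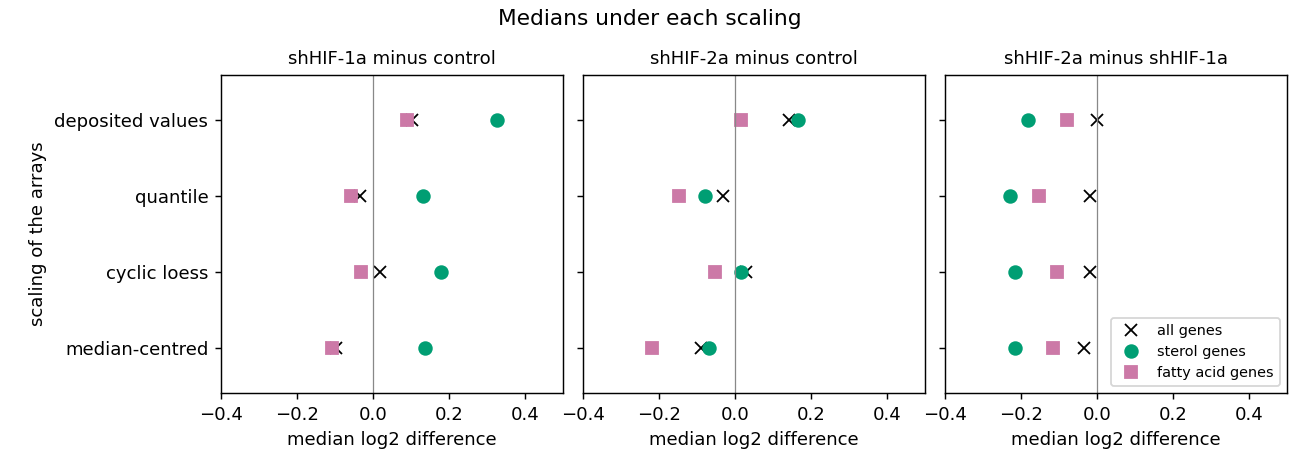
Median log2 difference of all genes compared (crosses), sterol genes (circles) and fatty acid genes (squares) in the 3 comparisons, with the deposited values and under 3 other scalings of the arrays. The sterol median stays right of the all-gene median for shHIF-1a-labelled minus control (0.13 to 0.33) and left of it for shHIF-2a-labelled minus shHIF-1a-labelled (−0.23 to −0.18).

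Among other genes of the sterol and isoprenoid pathway 10 of 17 could be compared, and none was 2-fold apart. Against control 7 of the 10 were higher and 1 lower on the shHIF-1a-labelled array, with a median of 0.10, and 7 higher and 2 lower on the shHIF-2a-labelled array, with a median of 0.12. Both counts were near the shares of all genes that were higher, 65.2% and 66.6%, and both medians near 0.10 and 0.14. Between the shRNA arrays 6 of the 10 were higher on the shHIF-2a-labelled array and 2 lower, with a median of 0.07. The shares of all genes were 44.9% and 24.6%, with a median of 0.00. These genes thus did not share the lower values of most sterol genes of the list there. The 4 genes given next were named after their values were seen. Mbtps2, a protease that releases SREBP, read 46.5, 68.0 and 75.7 and was the 1 gene past 1.5-fold. It was 1.63-fold above control on the shHIF-2a-labelled array, or between 1.39-fold and 1.63-fold under the 4 scalings. That size did not hold with the mean of its probe sets, where the log2 difference was 0.39. Insig2, the second INSIG gene, read 201.6, 182.6 and 155.2, and its log2 difference on the shHIF-2a-labelled array was −0.38. Among other fatty acid and glyceride genes 16 of 24 could be compared, with medians of 0.01 and 0.00 against control. There Mlx, a partner of a glucose-sensing transcription factor, was 1.55-fold above control and Dgat2, which makes triglyceride, 1.56-fold below, both on the shHIF-2a-labelled array. Neither size held throughout: Mlx lay between 1.11-fold and 1.55-fold above control under the 4 scalings, and the log2 difference of Dgat2 was −0.28 with the mean of its probe sets.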

How the data were processed

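Expression was measured in 3 samples, 1 per shRNA, grouped from the titles in the labels. The authors deposited intensities processed by RMA, which is named in the submitters' processing notes; version, settings and build: not given in the sources used here. That they are linear and not log2 was read from their range. RMA scales arrays to one another, which can remove or create small shared shifts, and here many values were exactly equal between arrays. The median of all probe sets was 1.41, 1.37 and 1.37 and the upper quartile 9.81, 13.0 and 13.9 on the control, shHIF-1a-labelled and shHIF-2a-labelled arrays. The number of arrays limits the precision.

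Differences are of log2 intensity, computed with Python 3.11.15 and pandas 2.3.3. Of 29449 listed probe sets 28898 had 1 gene and 28689 of these were matched by Entrez identifier to RefSeq symbols; 551 with several genes were left out. A value under the highest of 23 nonspecific probe sets was raised to it, giving a bound, and pairs with both under it were not compared. Differences of at least 2-fold or 1.5-fold were counted, with no test. Only counting at 2-fold was tested on simulated data, with changes past 2-fold set in bright genes and little noise. That test does not bear on smaller differences or on dim genes. Alternatives were 3 scalings (limma 3.58.1), probe set choice, the floor, 16 added before log2 and a minimum on brightness. All list genes are named; others follow a fixed rule (targeted genes, a few pathway and interferon genes, and list genes 2-fold apart above background), with exceptions stated. Members and lists were chosen with earlier results of these data known.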

Additional observations from a re-analysis of the deposited data

How the results depend on the processing

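With 1 array a group, the differences have no replicate check. No paired analysis was possible because each group holds 1 array. Signal over background limits Lss, Acaca, Mvk and the 3 genes under the nonspecific level. Of the counts and medians recomputed, 177 kept their direction and stayed within 1.5 times, 42 moved further and 12 medians changed sign. The 177 include counts of 0 that stayed at 0 and a choice of probe set that left the list medians unchanged, so that number is no measure of robustness. Against control on the shHIF-1a-labelled array the median was 0.10 for the whole list after quantile normalization, 0.15 after cyclic loess, 0.064 with centred arrays and 0.15 with 16 added before log2 (0.25 as deposited). For sterol genes it was 0.13, 0.18, 0.14 and 0.17 (0.33), and for fatty acid genes −0.058, −0.032, −0.11 and 0.058 (0.090). On the shHIF-2a-labelled array it was −0.11, −0.0066, −0.11 and 0.072 for the list (0.12), −0.079, 0.016, −0.069 and 0.10 for sterol genes (0.17), and −0.15, −0.052, −0.22 and 0.015 for fatty acid genes (0.016), which had 0.054 with the mean of all probe sets. In the direct comparison the list median was −0.052 with 16 added and −0.091 with the mean of all probe sets (−0.15), the sterol median −0.11 and −0.10 (−0.18), and the fatty acid median −0.029 with 16 added and −0.15 after quantile normalization (−0.080). At a mean intensity of at least 64 the list medians were 0.00, 0.032 and 0.00 in the 3 comparisons. At least 1.5-fold above control on the shHIF-1a-labelled array, the count of 3 became 0 after quantile normalization, 1 after cyclic loess, 1 with centred arrays, 0 with 16 added before log2, 1 at a mean intensity of at least 16 and 0 at 64. On the shHIF-2a-labelled array the count of 2 became 0, 1, 1, 0, 1 and 0 in the same order, and 1 with the mean of all probe sets. The count at least 1.5-fold below control there went from 0 to 2 after quantile normalization (Scd1 and Tm7sf2) and to 1 after cyclic loess, 1 with centred arrays and 1 with the mean of all probe sets, which on the shHIF-1a-labelled array also gave 1 (Fads1, at −0.91, where a probe set under the nonspecific level on both shRNA arrays enters the mean). With no floor, 1 gene, Lss, was past 2-fold above control on the shHIF-1a-labelled array. At a mean of at least 64 the sterol arm holds Scap alone, with a difference of 0.00 for shHIF-1a-labelled against control and 0.17 in the direct comparison. Over all genes, 677 were at least 2-fold above and 46 below control on the shHIF-2a-labelled array as deposited, against 266 and 89 after quantile normalization. With the mean of all probe sets Scd1 turned from −0.58 to 0.39 on the shHIF-2a-labelled array against control.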

Other observations

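Genes of cholesterol export, storage and oxysterol signalling were not part of the list; 9 of 15 could be compared. Against control 8 of 9 were higher and 1 lower on the shHIF-1a-labelled array (median 0.22 on the log2 scale), and 7 higher and 1 lower on the shHIF-2a-labelled array, with a median of 0.12. Over all genes 65.2% and 66.6% were higher, with medians of 0.10 and 0.14, so the second count was nearer to them. Mylip, which encodes a ubiquitin ligase and is a target of the oxysterol receptor LXR, read 7.78 on the control, 26.0 on the shHIF-1a-labelled and 15.9 on the shHIF-2a-labelled array. It was 3.35-fold above control on the first, or 2.63-fold to 3.35-fold under the 4 scalings, and 2.04-fold on the second, or 1.47-fold to 2.04-fold. Mylip was thus highest on the shHIF-1a-labelled array, but the 9 genes were mixed in the direct comparison. On the shHIF-2a-labelled array 5 were lower, 3 higher and 1 equal, with a median of −0.11, against 24.6% of all genes lower and 44.9% higher. The 3 higher ones were named after their values were seen. Abcg1 read 3.42, 3.94 and 5.34, Lpcat3 77.8, 93.5 and 97.2, and Nceh1 11.7, 15.4 and 21.1. Ch25h, which makes an oxysterol that holds SREBP back and is known as an interferon-induced gene in macrophages, read 58.6, 68.0 and 60.8. Apoe and Nr1h3, which encodes LXRα, were under the nonspecific level on all 3 arrays, and Abca1 was not analysed here.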
